A study of Schizosaccharomyces pombe with 9 samples.

Results

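The messenger RNA population of wild-type fission yeast in logarithmic growth was described from the 3 WT libraries of a series of 9 poly(A)+ RNA-seq libraries. The members were chosen by strain alone, as WT-1, WT-2 and WT-3, and the account covers all 5107 coding genes among the 6988 gene IDs of the count table. The cells were *Schizosaccharomyces pombe* of mating type h-, strain AS478, grown at 30 °C in YES, a rich medium of yeast extract with supplements. Each culture was a biological replicate in vegetative growth. The study's strain table lists for AS478 the alleles *leu1-32*, *ura4-D18*, *his3-D1* and *ade6-m216*, which are auxotrophic mutations common in laboratory strains, so WT here means wild type for the genes the study deleted. The series as a whole asked how fission yeast copes with phosphate starvation. The other 6 libraries, from *ecl3*Δ and *ecl123*Δ cells, were not used, and no strains were compared.

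A growing fission yeast cell spends much of its energy on making ribosomes, and the genes for ribosomal proteins, ribosome assembly factors and translation factors are known to be expressed together in proportion to growth. In glucose medium the cells ferment: glycolysis turns glucose into pyruvate, and pyruvate decarboxylase and alcohol dehydrogenase turn that into ethanol even in the presence of oxygen. Genes for meiosis and sporulation are kept off in vegetative cells, in part by elimination of their transcripts. Poly(A)+ RNA-seq reads out the steady-state amount of each mRNA, set by both its synthesis and its decay. It gives shares of the mRNA pool, so a lower share and less RNA per cell cannot be told apart from these values.

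The libraries held 26210046, 23254907 and 34857589 counts in WT-1, WT-2 and WT-3. Coding genes took 98.7% of them in each library and long noncoding RNAs between 1.19 and 1.23%. Levels are given as CPM, the counts of a gene scaled to a library total of 1000000, which is a share of reads and grows with the length of the mRNA. Levels of different genes are compared as CPM per kilobase of annotated mRNA (RPKM). Over the 4628 coding genes with a mean of at least 10 CPM, the median absolute log2 difference was 0.08 between WT-1 and WT-2, 0.10 between WT-1 and WT-3 and 0.06 between WT-2 and WT-3. WT-1 stood apart: 30 genes differed by more than 1.5-fold between WT-1 and WT-2 and 46 between WT-1 and WT-3, against 3 between WT-2 and WT-3. Long mRNAs were slightly higher and short mRNAs slightly lower in WT-1, as described with the variable genes.

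The label was checked against genes that mark it. The *ura4* gene, for orotidine 5′-phosphate decarboxylase of pyrimidine synthesis, was at 0 counts in each library, and *ura4-D18* is a deletion of it. The *his3* gene, for a histidine synthesis enzyme, had 418, 354 and 555 counts, or 15.9, 15.2 and 15.9 CPM, although the strain table lists *his3-D1*; how far that deletion reaches was not examined. *leu1* and *ade6*, which carry point alleles, had 805, 795 and 741 CPM and 214, 209.9 and 193 CPM. Of 9 genes specific to M cells, the mating type of an h- strain, 5 had a mean of at least 10 CPM, and so had 2 of 4 P-cell genes of the opposite mating type, beside 90.6% of all coding genes, so these counts do not mark the mating type. *mam1*, the exporter of the M-factor pheromone, had 102, 87.3 and 99.98 CPM and a mean of 23.6 RPKM. The M-cell genes *mam2* and *sxa2* had means of 19.5 and 10.5 RPKM. *mfm2*, an M-factor precursor, had 73.4, 87.8 and 82.8 CPM and a mean of 182 RPKM. The other precursor genes *mfm1* and *mfm3* were lower, with 3.09, 4.64 and 3.7 CPM and 1.45, 1.59 and 1.92 CPM, or 8.74 and 6.13 RPKM on average, and *mam3*, an adhesion protein, had 8.16 RPKM. The regulators *mat1-Mc* and *mat1-Mi* were listed at 0, and all of their 51-base windows are repeated elsewhere in the genome, which holds silent copies of the mating-type genes. Of the P-cell genes, *map2*, the P-factor precursor, had 5.49, 4.69 and 3.53 CPM and *map3*, the M-factor receptor, 9.42, 8.26 and 8.89 CPM. *map4*, an agglutination protein, had 17.4, 15.1 and 15 CPM. *sxa1*, a protease also kept on that list, had 706, 747 and 760.1 CPM and a mean of 341 RPKM, against 6.81 RPKM for *map2*, 5.04 RPKM for *map3* and 3.95 RPKM for *map4*. *mat1-Pc* and *mat1-Pi* are not analysed here.

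A small part of the coding genes held most of the reads. The 255 ± 5.03 most abundant genes held 50% of the coding counts (SD, n = 3), with 260, 250 and 256 in the 3 libraries. The first 10 genes held 5.16 ± 0.187%, the first 100 held 30.2 ± 0.29% and the first 1000 held 75.1 ± 0.25%. At the other end, the less abundant 50% of the genes together held 8.35 ± 0.119%. Per kilobase the pool was more concentrated still, since 118 ± 1.73 genes made up 50% of the summed RPKM and the first 100 made up 45.1 ± 0.409%. The median coding gene stood at 66.8 CPM and 36.4 RPKM, and the 99th percentile at 2703 CPM and 3786 RPKM. The typical gene lay between 10 and 100 CPM, a band of 2873 genes with 14.8% of the coding reads. Above it, 1548 genes between 100 and 1000 CPM held 39.4%, and 207 genes above 1000 CPM held 45.6%. Below it, 300 genes lay between 1 and 10 CPM with 0.152%, and 179 genes averaged less than 1 CPM with 0.00495%.

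**Figure D1:**
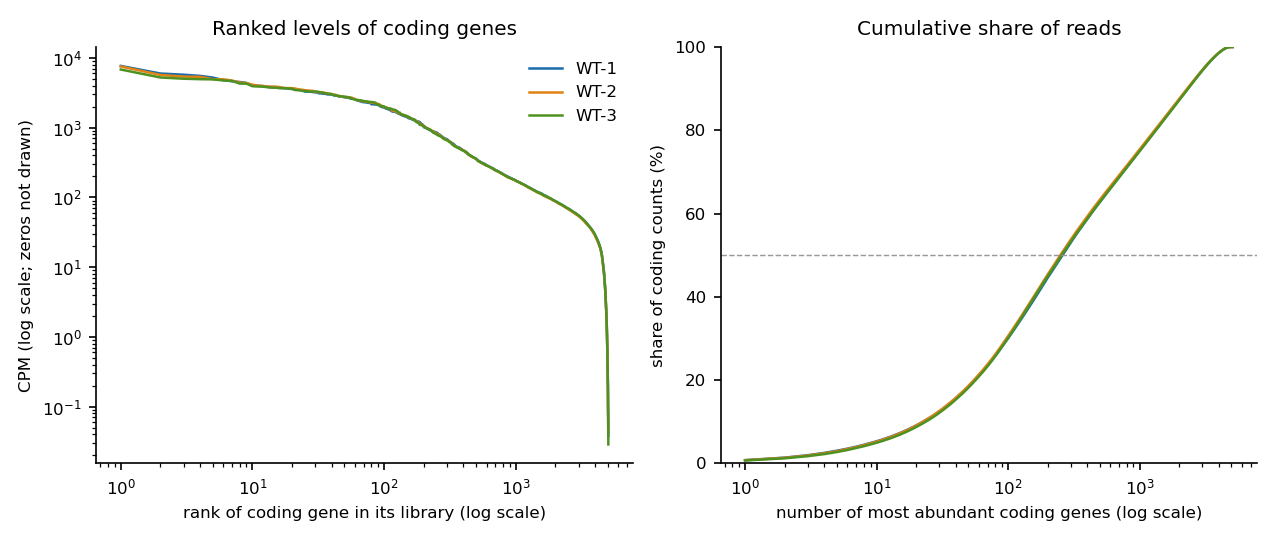
Left, CPM of each coding gene (log scale) against its rank within its library (log scale), 1 line per WT library, genes at 0 left out. Right, the percent of coding counts held by the most abundant coding genes, with the dashed line at 50%, which the libraries reach at 260, 250 and 256 genes.

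The mRNAs with the largest shares of reads encoded enzymes of fermentation and parts of the translation machinery. *fba1* (SPBC19C2.07), for fructose-bisphosphate aldolase, was first in the order with 7661, 7528 and 6803 CPM in WT-1, WT-2 and WT-3. *pdc101* (SPAC1F8.07c), for pyruvate decarboxylase, followed with 5735, 5690.2 and 5021 CPM. *tef3* (SPCC417.08), for the elongation factor eEF3, had 5963, 5384 and 4915 CPM, and this fungal factor clears spent tRNA from the ribosome. *sks2* (SPBC1709.05), for an Hsp70 that binds nascent chains at the ribosome, had 5516, 5345 and 5231 CPM. *pgk1* (SPBC14F5.04c), for phosphoglycerate kinase, had 5212, 4941 and 4666 CPM. Each of these was highest in WT-1 and lowest in WT-3. The ranges of neighbours overlapped in 15 of the 19 neighbouring pairs among the first 20 genes, so the exact order is not settled by 3 cultures.

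The first 20 by reads held 8 ribosomal protein genes, 6 of glycolysis and fermentation and 6 others. The others were *tef3* and *sks2*, given above, and 4 more. *act1*, the single actin gene, had 3983, 3887 and 3863 CPM. *tef103*, a gene for the elongation factor EF-1 alpha that brings aminoacyl-tRNA to the ribosome, had 3947, 4132 and 3686 CPM, but 72% of the 51-base windows of its mRNA occur more than once in the genome, and reads from such windows may have been left out of the counts. *cpc2*, the RACK1 protein of the small subunit, had 3813, 3945 and 3667 CPM. *met26*, the methionine synthase, had 3822, 3506 and 3426 CPM and was the highest gene of amino acid synthesis by reads.

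Per kilobase, the order was led by genes for small ribosomal proteins. *rps2502* (SPAC694.05c), for the small-subunit protein eS25, had 8298, 8752 and 8795 RPKM in WT-1, WT-2 and WT-3. *rpl3401* (SPAC23A1.08c) had 7676, 8074 and 8205 RPKM and *rps21* (SPBC18E5.06) had 7579.8, 8006 and 8229 RPKM. Each of these was lowest in WT-1. The range of *rps2502* lay above that of *rpl3401*, while the ranges of neighbours overlapped in 17 of the 19 pairs among the first 20. Of the first 20 genes per kilobase, 18 encoded ribosomal proteins. The others were *ubi3*, a fusion of ubiquitin with the small-subunit protein S31, with 6359, 6719.8 and 6720.1 RPKM, and the aldolase gene *fba1* with 5989.5, 5886 and 5319 RPKM. The orders by reads and per kilobase shared 5 genes of their first 20 and 76 of their first 100.

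The coding genes were divided by name and product into 29 classes, with each gene in 1 class. The machinery of protein synthesis took the largest share of the reads: ribosomal proteins, translation factors, ribosome assembly, aminoacyl tRNA synthetases and ubiquitin fusions together held 37.5 ± 0.744% of the coding counts (SD, n = 3) and 56.6 ± 0.548% of the summed RPKM. The 137 cytosolic ribosomal protein genes alone held 26.8, 28 and 28.2% of the counts in WT-1, WT-2 and WT-3, lowest in WT-1, and 48.5 ± 0.568% of the summed RPKM. Their median of 3141 RPKM stood beside 36.4 RPKM over all coding genes, and 85 of them were among the first 100 genes per kilobase. Short mRNAs as a whole were lower in WT-1, and the part of this in the ribosomal protein share was not tested. Translation factors (60 genes) held 5.12 ± 0.083% of the counts, with a median of 286 RPKM. Ribosome assembly factors (111 genes) held 2.54 ± 0.0463% and aminoacyl tRNA synthetases (36 genes) 1.2 ± 0.0427%. The 4 ubiquitin fusion genes held 0.914 ± 0.0314%.

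Energy and biosynthesis came next. Glycolysis and fermentation held 4.58, 4.43 and 4.13% of the counts through 19 genes, highest in WT-1, and 3.26 ± 0.221% of the summed RPKM. Chaperones (126 genes) held 4.31 ± 0.0888% and amino acid synthesis (89 genes) 4.16 ± 0.139%, while nucleotide synthesis held 1.11 ± 0.0111% and sterol synthesis 0.488 ± 0.00103%. The patterns placed *ura1* and *ade6*, which encode enzymes of nucleotide synthesis, with amino acid synthesis, at means of 732 and 206 CPM. The shares of amino acid and nucleotide synthesis are therefore not cleanly divided. The respiratory chain and ATP synthase held 1.4 ± 0.0365%, the tricarboxylic acid cycle 0.684 ± 0.0199% and mitochondrial ribosomal proteins 0.57 ± 0.0202%, so 76 mitochondrial ribosomal protein genes with a median of 72 RPKM took a small fraction of what their 137 cytosolic counterparts took. Large regulatory classes took little per gene: 305 genes of transcription and chromatin held 2.59 ± 0.0317% with a median of 29.8 RPKM, and 156 genes for protein kinases and phosphatases held 1.47 ± 0.0211% with a median of 32.8 RPKM. The smallest share belonged to the 26 genes of meiosis and sporulation, 0.0424 ± 0.00159% with a median of 2.08 RPKM. Products that no pattern took (2299 genes) held 25.3 ± 0.169%, and proteins of unknown function (373 genes) held 1.71 ± 0.0487% with a median of 18.7 RPKM.

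**Figure D2:**
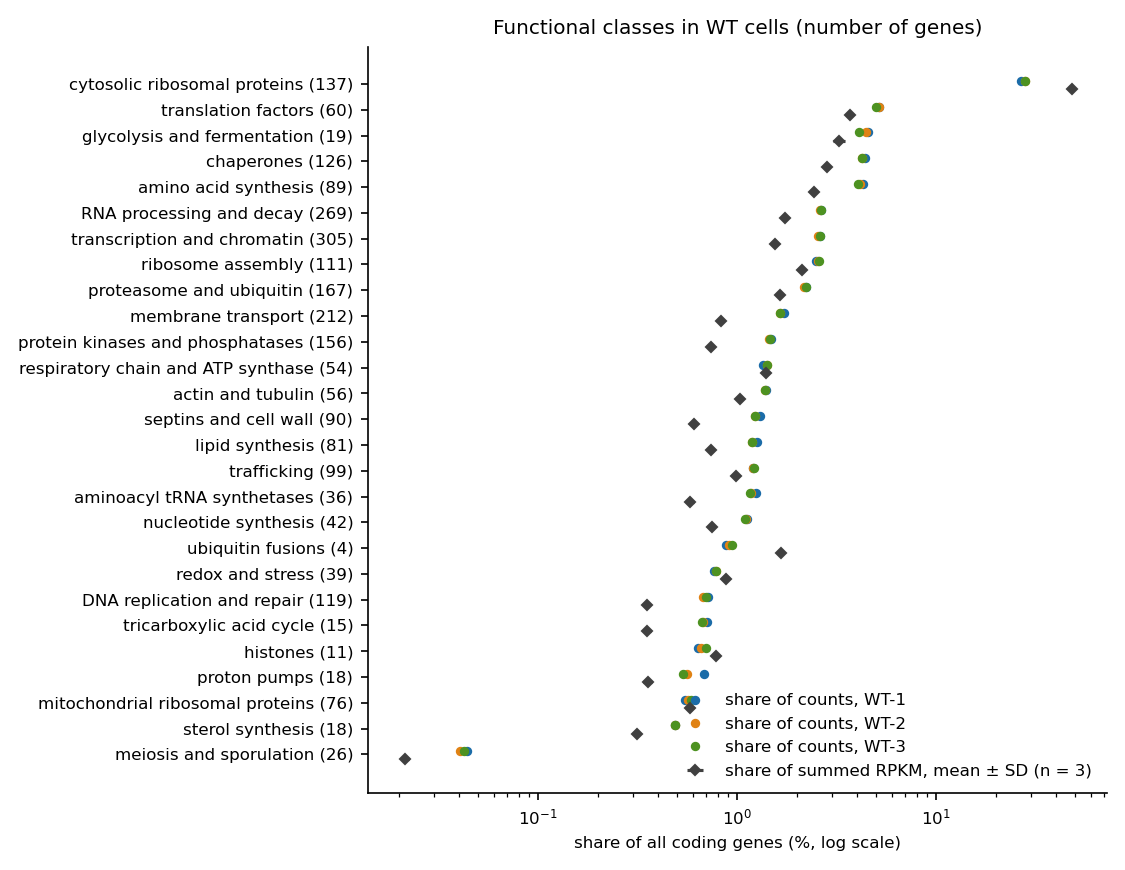
Functional classes of coding genes in WT cells, with the number of genes in brackets and the share on a log scale, without unknown and other named products. Coloured points are the percent of coding counts in each library and grey diamonds the percent of summed RPKM with its SD over 3 libraries. Cytosolic ribosomal proteins stand at the top with 27.7 ± 0.76% of the counts and 48.5 ± 0.568% of the summed RPKM, and meiosis and sporulation at the bottom with 0.0424 ± 0.00159% of the counts.

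The ribosomal protein genes formed a high plateau. Of the 137 genes, 128 had a mean above 1000 RPKM. The lowest per kilobase was *rpl1603*, 1 of 3 genes for the large-subunit protein uL13, with 65, 66.1 and 66.7 RPKM. Its annotated mRNA is 2640 bases long, against 687 for *rpl1601* and 743 for *rpl1602*, and by reads it had a mean of 174 CPM. Most ribosomal proteins of fission yeast are encoded by more than 1 gene. The 137 genes were grouped by name into 77 proteins, of which 22 had a single gene and 55 had paralogs. Summed over paralogs, the level spanned a narrower range than per gene. The 31 small-subunit proteins had a median of 6155 RPKM, with the lowest at 3367 and the highest at 11917 RPKM, and 31 of the 31 lay within 2-fold of their median. The 43 large-subunit proteins had a median of 5824 RPKM, and 39 of them lay within 2-fold of it. Of the 3 stalk proteins, P0 had 3087, 3184 and 3181 RPKM in WT-1, WT-2 and WT-3. P1 summed to 6997, 7155 and 7158 RPKM and P2 to 9709, 9604 and 10896 RPKM. The ribosome carries these acidic proteins as a P0 bound by several copies of P1 and P2, and P0 was the lowest of them in each library.

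The lowest sums were those of *rpl12*, *rpl7* and *rpl3*. The *rpl12* pair summed to 931, 1004 and 1015 RPKM, with 85% of windows repeated in the genome for *rpl1201* and 70% for *rpl1202*. The *rpl3* pair summed to 1881, 1927 and 1847 RPKM, with 66.7% for *rpl301* and 56.1% for *rpl302*. The levels of both pairs may therefore be undercounted. For *rpl7* only *rpl702* was in the class, at 1395, 1465 and 1474 RPKM, because RefSeq describes *rpl701* as an RNase MRP subunit and it was placed with ribosome assembly at 3643, 3747 and 3827 RPKM.

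Paralogs shared the output of a protein unequally. In 46 pairs with at most 20% repeated windows in either gene, the higher gene gave a median of 60.9% of the summed RPKM of the pair, from 50.2 to 94.9%. The ranges of the genes of a pair over the 3 libraries did not overlap in 43 of the 46 pairs. These splits rest on the annotated mRNA lengths, and in some pairs the gene higher per kilobase was lower by reads. For example, *rps1002* had a mean of 928 CPM beside 1205 CPM for *rps1001*, and *rps602* had 3100 CPM beside 3197 CPM for *rps601*. In 6 pairs the higher gene gave over 75%. The most uneven per kilobase was *rpl34*, where *rpl3401* gave 95.1, 94.9 and 94.8% of the pair in WT-1, WT-2 and WT-3. The annotated mRNA is 455 bases long for *rpl3401* and 870 for *rpl3402*. *rpl3001* gave 92.1, 91.3 and 91.5% of the *rpl30* pair and *rpl101* 86.8, 86.6 and 86.3% of the *rpl1* pair. These splits moved little between cultures compared with their distance from an even split. By reads, *rpl3401* and *rpl3402* had means of 3633 and 370 CPM, and *rpl3001* and *rpl3002* had 2225 and 209 CPM. Near-even pairs per kilobase were also present. In *rpl38*, *rpl3802* gave 52.1, 51.8 and 50.8%, and in *rpl5*, *rpl501* gave 51.4, 50.6 and 50.9%.

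**Figure D3:**
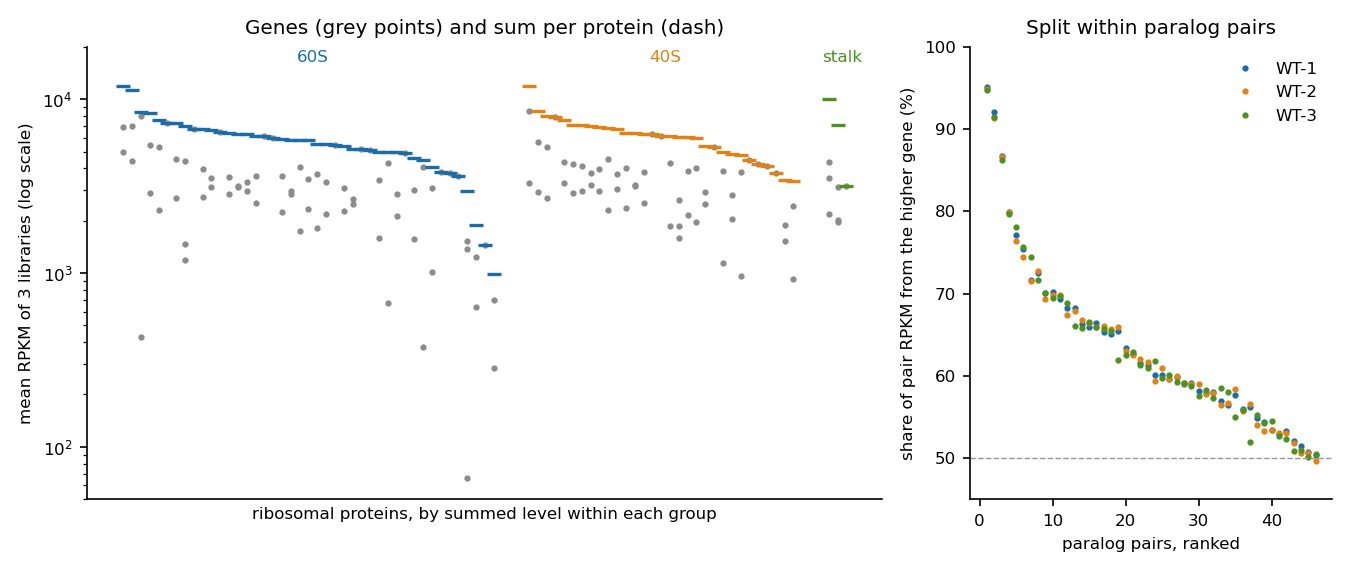
Left, mean RPKM over 3 libraries (log scale) of each ribosomal protein gene (grey points) and summed per protein (coloured dashes), for 43 large-subunit, 31 small-subunit and 3 stalk proteins. Right, the percent of the RPKM of a paralog pair that came from its higher gene, in each WT library, for 46 pairs ranked from 94.9 to 50.2%; the dashed line marks an even split.

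The promoters of ribosomal protein genes often held a motif that the order of levels did not use. In fission yeast these genes are known to carry the HomolD box, which takes the place of a TATA box, often with a second element, HomolE. Promoters were read from RefSeq ASM294v3, from 250 bases before to 50 after the annotated mRNA start, on both strands, for 5106 genes. HomolD was searched as the letters CAGTCACA, HomolE as ACCCTACC and the TATA box as TATAAA, and no motif contains another. CAGTCACA was present in 87 of 137 ribosomal protein promoters, 63.5%, and in 137 of 5106 coding promoters, 2.68%. Its median position in the ribosomal protein promoters was 51 bases before the annotated start. ACCCTACC was present in 29.9% of ribosomal protein promoters and 1.63% of all, and TATAAA in 27.7% and 48.1%.

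Among ribosomal protein genes, the median level was 3279.5 RPKM for the 87 with CAGTCACA and 2985 RPKM for the 50 without it. The other 50 genes with CAGTCACA had a median of 254 RPKM. The first 4 of them were *tpi1* with 4527 RPKM, *rpl701* with 3739 RPKM, *btf3*, a subunit of the nascent polypeptide-associated complex, with 3600.3 RPKM and *cpc2* with 3569 RPKM. The letters stood 58, 53 and 50 bases before the start in *tpi1*, *btf3* and *cpc2*, and 10 bases after it in *rpl701*. The 3 EF-1 alpha genes *tef101*, *tef102* and *tef103* and the eIF4A gene *tif1* carried them 44, 56, 59 and 54 bases before the start, and the eEF3 gene *tef3* 139 bases before it.

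Translation factors spanned a wide range of levels. Of the elongation factors, *tif512* and *tif51*, both for eIF5A, which helps the ribosome through difficult peptide bonds, had 4558, 4844 and 4964 RPKM and 1913, 2032 and 1914 RPKM in WT-1, WT-2 and WT-3. *tef5*, the exchange factor that recharges EF-1 alpha, had 3578, 3674 and 3601 RPKM. Initiation factors came next. *tif1*, the eIF4A helicase that unwinds mRNA leaders, had 1793, 1839.7 and 1845 RPKM, and *tif471*, the eIF4G scaffold, had 264, 239 and 228 RPKM. The cap-binding protein eIF4E had a main gene, *tif45*, with 399, 429 and 427 RPKM and a second gene, *tif452*, with 129, 131 and 135 RPKM. *eft201* and *eft202*, for EF-2, had 187 and 308 RPKM, but 84.7 and 84.2% of their windows are repeated. The kinases that shut initiation down under stress were low: *gcn2* had 26.5, 22.7 and 21 RPKM, *hri1* 14.8, 19.8 and 19.7 RPKM and *hri2* 27.4, 23.7 and 24.3 RPKM.

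The 4 ubiquitin fusion genes supply both ubiquitin and a ribosomal protein. *ubi1* and *ubi2*, fused to the large-subunit protein L40, had 4612, 4797 and 4967 RPKM and 1714, 1794 and 1852 RPKM. *ubi5*, the second gene for the S31 fusion, had 2433, 2447 and 2625 RPKM, below *ubi3* in each library. All of them lay within the range of the ribosomal protein genes.

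In glycolysis, the main genes of the lower, triose part stood above those of the upper part per kilobase. Hexokinase, which phosphorylates glucose, had 2 genes, *hxk1* with 208, 195 and 188 RPKM and *hxk2* with 404, 379 and 365 RPKM. *pfk1*, for the phosphofructokinase that commits sugar to glycolysis, had 393, 331 and 303 RPKM. *pgi1*, for the isomerase between them, had 783, 759 and 729.5 RPKM. From aldolase onward the levels were higher: *tpi1*, for triosephosphate isomerase, had 4562, 4546 and 4472 RPKM and *gpm1*, for phosphoglycerate mutase, 3477, 3433 and 2946 RPKM. *pyk1*, for pyruvate kinase at the exit of the pathway, was lower than these with 1449, 1286 and 1228 RPKM.

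At 4 steps with several genes, unlike at hexokinase, 1 gene carried nearly all of the mRNA. Glyceraldehyde-3-phosphate dehydrogenase came from *tdh1* with 2728, 2649 and 2602 RPKM, beside *gpd3* with 145, 146 and 139 RPKM. Enolase came from *eno101* with 2547, 2534 and 2256 RPKM, beside *eno102* with 6.31, 5.92 and 7.14 RPKM. Pyruvate decarboxylase came from *pdc101* with 3044, 3020.3 and 2665 RPKM, while *pdc202* had 5.79, 5.68 and 5.74, *pdc201* 1.58, 1.73 and 2.0 and *pdc102* 0.244, 0 and 0.0668 RPKM. Alcohol dehydrogenase came from *adh1* with 2893, 2768 and 2670.5 RPKM, beside the mitochondrial form *adh4* with 105, 96.5 and 98 RPKM. The ranges of the main gene and the minor genes were far apart at each of these 4 steps in each library.

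**Figure D4:**
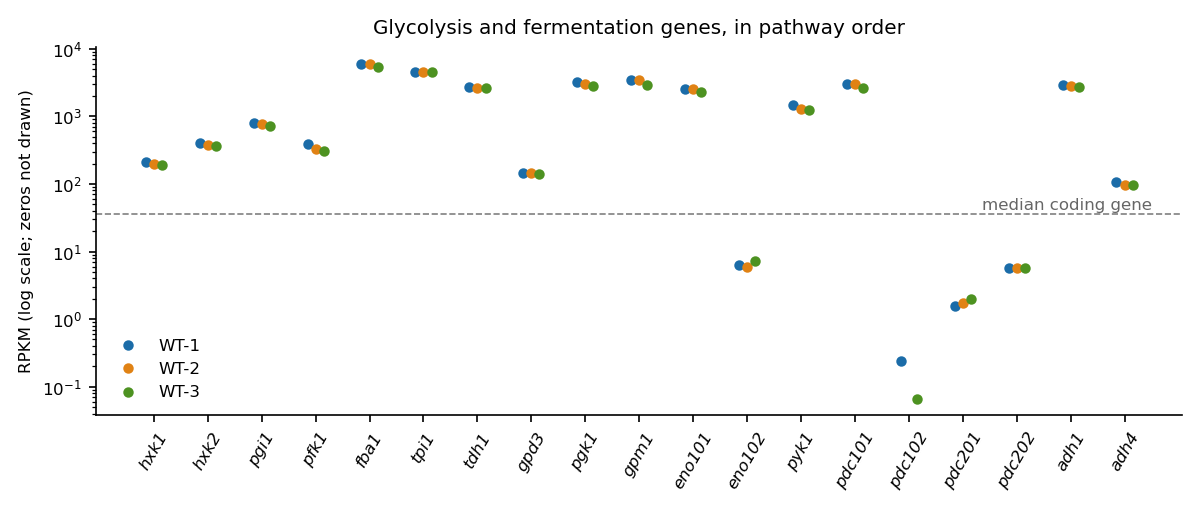
RPKM (log scale) of 19 genes of glycolysis and fermentation in pathway order, 1 point per WT library, values at 0 left out; the dashed line is the median coding gene at 36.4 RPKM. *fba1* is highest at 5989.5, 5886 and 5319 RPKM, and the minor genes *eno102*, *pdc102*, *pdc201* and *pdc202* lie below the dashed line.

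Other classes were led by the following genes. Among chaperones, *ppi1*, the cyclophilin that speeds the folding of proline bonds, had 3169.6, 3326 and 3465 RPKM, above *sks2* with 2607, 2526 and 2472 RPKM. In amino acid synthesis, *ilv5*, for an enzyme of branched-chain amino acids, had 1918, 1959.7 and 1848 RPKM. Of the ubiquitin and proteasome genes, *ubc4*, a ubiquitin-conjugating enzyme, had 2423, 2594 and 2608 RPKM and *cdc48*, the ATPase that extracts ubiquitinated proteins, 489.9, 440.1 and 426 RPKM. The ribosome assembly class was led, after *rpl701*, by *snu13*, a protein of snoRNA and spliceosomal particles, with 1699, 1778 and 1821 RPKM, and its lowest gene was *utp20*, a U3 particle protein, with 16.1, 11.9 and 11.5 RPKM.

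In the mitochondrion, *atp2*, the catalytic beta subunit of ATP synthase, had 985, 1004 and 989.6 RPKM and *qcr8*, of the cytochrome bc1 complex, 612, 679 and 681 RPKM. *pda1*, of pyruvate dehydrogenase, had 500.4, 506 and 496 RPKM and *aco1*, aconitase, 457, 439 and 418 RPKM, while *kgd1*, of alpha-ketoglutarate dehydrogenase, was the lowest of the cycle with 60.9, 54.4 and 51.8 RPKM. The entry to the cycle stood above its oxoglutarate step in each library. At the cell surface, *gas2* and *gas1*, which remodel the glucan of the wall, had 899, 961 and 961 RPKM and 610.3, 569.6 and 543 RPKM, and *adf1*, the cofilin that severs actin filaments, had 1412, 1492 and 1525 RPKM. For lipids, *acb1*, the acyl-CoA binding protein, had 965, 1002 and 1031 RPKM, and for sterols *erg5*, a desaturase of ergosterol synthesis, 428, 437 and 431 RPKM. *itr2*, the inositol transporter, had 451, 468 and 480.5 RPKM and came next to *pho84*, given below, which led membrane transport. Fission yeast must take up inositol because it cannot make it. In the secretory pathway the small translocon subunits *sbh1* and *sss1* had 739.9, 788 and 781 RPKM and 556, 584 and 605 RPKM.

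In the classes of transcription, RNA processing, replication and repair, kinases and phosphatases, and nucleotide synthesis, the highest genes included these. *rpb10*, a subunit common to the RNA polymerases, had 428, 475 and 470.3 RPKM, and *mlo3*, an RNA-binding protein of mRNA export, had 643, 662 and 675 RPKM. *pcn1*, the sliding clamp PCNA, had 237, 249 and 246 RPKM and led the replication and repair class, and the phosphatase genes *ptc3* and *dis2* led the kinases and phosphatases with 278, 284 and 283 RPKM and 234, 233 and 244 RPKM. *gua1*, for IMP dehydrogenase of guanine nucleotide synthesis, had 941, 918 and 897 RPKM. None of these leaders reached the median of the ribosomal protein genes. Among genes of unknown function the highest was SPAC922.04 with 924, 976 and 1045 RPKM.

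Glucose enters through a family of hexose transporters. Of the 8 hexose transporter genes *ght1* to *ght8*, 4 had a mean of at least 10 CPM, against 90.6% of all coding genes. *ght8* had 869, 859 and 891 CPM, *ght5*, known as the high-affinity glucose transporter, had 139, 128 and 185 CPM and *ght2* had 96.6, 88.8 and 90.2 CPM. Per kilobase their means were 348, 73 and 40.5 RPKM. *ght5* was highest in WT-3. 24.5% of the windows of *ght8* and 29.3% of those of *ght5* are repeated, so their reads may be partly lost or misplaced. *ght1*, *ght3*, *ght6* and *ght7* each stayed under 5 CPM.

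Phosphate acquisition is the subject of the study, and its genes differed in level in rich medium. *pho84*, the phosphate transporter, had 1211, 1115 and 1084 CPM and *pho1*, the cell-surface acid phosphatase, had 1117, 1081 and 983 CPM. *tgp1*, the glycerophosphodiester transporter, had 16.4, 13.7 and 12.6 CPM, and *pho7*, the transcription factor of these genes, had 49.5, 49.6 and 51.3 CPM. Per kilobase *pho1* and *pho84*, at 685 and 541 RPKM, stood above the 90th percentile of coding genes, 242 RPKM, and *tgp1*, at 6.78 RPKM, below the median. In the annotation used here, 89% of the *pho84* mRNA and 91.3% of the *pho1* mRNA are shared with another gene on the same strand. For *tgp1* the share is 3.66%. Reads may have been dropped from *pho84* and *pho1* or may come from the overlapping gene, so their levels are uncertain in either direction. According to the paper, upstream noncoding transcription keeps *pho1*, *pho84* and *tgp1* repressed when phosphate is plentiful. The part of overlapping transcripts in these counts was not tested. Of the *ecl* genes, small factors tied to long survival, *ecl2* had 60.3, 52.8 and 52.5 CPM, *ecl1* 17.9, 16.9 and 14 CPM and *ecl3* 0.878, 0.645 and 1.2 CPM, with *ecl3* near the 1 CPM below which genes are counted here as barely detected.

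Proton pumps power transport across the plasma membrane and acidify the vacuole. *pma1*, the plasma membrane ATPase, had 3579, 2288 and 2009 CPM and 801, 512 and 449.5 RPKM, with WT-1 well above the other cultures. Its paralog *pma2* had 0.725, 0.645 and 0.861 CPM. Of the vacuolar ATPase, *vma3*, a subunit of the membrane ring, was highest with 543, 602 and 606 RPKM, beside 223, 218 and 212 RPKM for the catalytic subunit *vma1*. The class held 0.686, 0.564 and 0.535% of the counts, a spread that followed *pma1*.

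The histone genes were abundant and uneven. Those for H3 were *hht1* with 1044, 1076 and 1139 RPKM, *hht2* with 879.7, 941 and 984 RPKM and *hht3* with 784, 838 and 865 RPKM, and those for H4 were *hhf1* with 658, 693 and 738, *hhf2* with 312, 329 and 366 and *hhf3* with 848, 869 and 940.5 RPKM. The only H2B gene, *htb1*, had 983, 1040.2 and 1058 RPKM. For H2A, *hta2* had 1098, 1144 and 1220 RPKM and *hta1* 316, 305 and 312 RPKM, so *hta2* was higher in each library. The variants were lower: *pht1*, the H2A.Z that marks promoters, had 107, 115 and 122 RPKM and *cnp1*, the centromeric CENP-A, 11.7, 10.5 and 13 RPKM. Of the 11 genes, *hta1* was highest in WT-1, and the other 10 were highest in WT-3.

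Genes of the stress response were also looked at, with no added stress. Of 19 genes of the core stress list, 18 had a mean of at least 10 CPM, a share near the 90.6% of all coding genes, and the median level was 115 RPKM, beside 36.4 RPKM over all coding genes. *sod1*, the superoxide dismutase of the cytosol, had 1637, 1709 and 1782 CPM, *tpx1*, the peroxiredoxin, 876, 913 and 797 CPM and *gpd1*, for glycerol-3-phosphate dehydrogenase, 882, 865 and 827 CPM. These are enzymes against oxidants and of glycerol synthesis, while the sulfiredoxin gene *srx1*, which reactivates peroxiredoxin, had 2.52, 2.28 and 2.58 CPM. Summed over the list the libraries stood at 5943, 5961 and 6031 CPM.

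Of 12 genes of iron handling, 7 had a mean of at least 10 CPM, where 90.6% of all coding genes had. *pcl1*, the vacuolar iron importer, was highest, by reads and per kilobase, with 286, 288 and 279.9 CPM. The reductive uptake genes were low: *fio1*, the multicopper oxidase, had 3.05, 1.72 and 3.04 CPM, *fip1*, the permease, 6.87, 5.85 and 6.08 CPM and *frp1*, the reductase, 4.16, 8.39 and 6.71 CPM. The gene *str3*, which RefSeq names a siderophore transporter and the study describes as a heme transporter, had 8, 1 and 2 counts.

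Genes whose mRNA comes and goes with the cell cycle were looked at in these unsynchronised cultures. All 15 had a mean of at least 10 CPM, where 90.6% of all coding genes had. Their median of 20.3 RPKM was below the 36.4 RPKM of all coding genes. *cdc22* and *suc22*, the subunits of ribonucleotide reductase, had 535, 496 and 477 CPM and 398, 426 and 407 CPM. *cdc13*, the mitotic B-type cyclin, had 302, 302 and 300.1 CPM, *cdc18*, which licenses replication origins, 41.5, 37.1 and 39.2 CPM and *eng1*, the glucanase that splits daughter cells, 249, 219 and 200.5 CPM.

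The meiotic genes of a fixed list were low. The 34 genes of that list had a median of 3.11 RPKM, beside 36.4 RPKM over all coding genes, and a highest level of 28 RPKM. Under 1 CPM in each library were 4 of them, against 2.98% of all coding genes. A mean of at least 10 CPM was reached by 11 of the 34, against 90.6% of all coding genes. *mei2*, the RNA-binding protein that starts meiosis, was the highest of them by reads with 74, 65.6 and 64.7 CPM. The level of *mei2* mRNA stood beside near silence of its activator: *mei3*, which frees Mei2 from inhibition, had 8, 0 and 11 counts. *mei4*, the forkhead factor of middle meiosis, had 6.03, 6.41 and 4.33 CPM, and *rec8*, the meiotic cohesin, 2.98, 3.1 and 2.44 CPM. *spo4*, a kinase of the second meiotic division, had 8, 6 and 6 counts. The 3 libraries gave nearly equal sums over the list, 457, 447 and 452 CPM. Outside the list, the meiosis and sporulation class was led by *rmr1* and *mug65*, with means of 53.6 and 37.9 RPKM, above the median coding gene.

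Nearly all coding genes were detected. At least 1 read fell on 5037, 5038 and 5044 of the 5107 coding genes in WT-1, WT-2 and WT-3, and on 5020 in every library. At 0 in all 3 libraries were 45 genes. A count of 0 over the summed depth of 84322542 counts allows a level of up to 0.0356 CPM, for counting error only. Of the 45, 23 had more than 20% repeated windows, among them Tf2 retrotransposon genes, the mating-type genes *mat1-Mc* and *mat3-Mc* and genes next to chromosome ends, against 2.41% of all coding genes. Reads that map to several places are commonly dropped in counting, so 0 does not show that these genes are silent.

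Of the 22 with at most 20% repeated windows, 12, or 54.5%, shared over 50% of their annotated mRNA with another gene on the same strand, where reads are also commonly dropped, against 0.392% of all coding genes. They were short, with a median mRNA of 339.5 bases, and 17 of them were under 500 bases, against 4.86% of all coding genes. Named genes in this group with such an overlap were *sfc7*, a TFIIIC subunit, *tco1*, *ina22*, *new14* and *ost5*, a subunit of oligosaccharyltransferase. *mzt1*, which anchors gamma-tubulin complexes, shared 35.5% of its mRNA with a neighbour. Without overlap were *coa3*, a cytochrome oxidase assembly factor, *ina17*, an ATP synthase assembly factor, *new15*, a mitochondrial ribosomal protein, and *ura4*. Except *ura4*, whose allele is listed in the strain table, these had mRNAs of 258, 289 and 378 bases. How their annotation differs from the one used for counting was not tested.

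A further 107 genes had a read but stayed under 1 CPM in each library. Together with the genes at 0 they make 152 barely detected genes, 2.98% of the coding genes with 0.00275% of the coding reads. Of the 152, 40.1% encoded proteins of unknown function, against 7.3% of all coding genes. Among the 107, 71 had at most 20% repeated windows. These included genes of meiosis and spore formation: *rec7*, *rec15* and *rec27*, of the machinery that breaks DNA for recombination, had 16, 21 and 16 counts, 21, 7 and 22 counts and 19, 19 and 20 counts. *rem1*, the meiotic cyclin, had 2, 10 and 12 counts, *mfr1*, an activator of the anaphase-promoting complex in meiosis, 6, 3 and 13 counts, and *moa1*, which orients sister kinetochores, 1, 12 and 4 counts. *bqt2*, which gathers telomeres into the meiotic bouquet, had 10, 9 and 14 counts. At such counts the libraries cannot be ordered. Also here were minor copies of enzymes named above, *pdc102* with 11, 0 and 4 counts and *pma2* with 19, 15 and 30 counts, and the transcription factor genes *atf21* with 18, 18 and 20 and *rsv1* with 1, 12 and 7 counts.

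Barely detected genes were common near chromosome ends, where fission yeast chromatin is known to be silenced. Of the 40 coding genes next to each of the 4 ends of chromosomes I and II, 56 of 160 were under 1 CPM in each library, 35%, against 96 of 4947 other coding genes, 1.94%. The ends are rich in repeated sequence. With only genes of at most 20% repeated windows, the numbers were 13 of 98, 13.3%, against 80 of 4886, 1.64%, and the median levels were 7.99 RPKM and 37.7 RPKM. By overlap, 14 of the 20 genes that share over 50% of their mRNA with another gene on the strand were barely detected, against 138 of the other 5087, 2.71%.

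Most transposon and *wtf* genes are repeated in sequence. Of 29 such genes, 22 had more than 20% repeated windows, 5 were at 0 and 5 had a mean of at least 10 CPM. Over all 5107 coding genes, 123 had more than 20% repeated windows, 45 were at 0 and 90.6% had at least 10 CPM. Of the Tf2 retrotransposons, *Tf2-11*, with 90.8% repeated windows, had 4.04, 4.17 and 2.5 CPM and *Tf2-2*, with 98.5%, 3.13, 2.75 and 2.27 CPM, while *Tf2-5*, *Tf2-8*, *Tf2-9*, *Tf2-12* and *Tf2-13* were at 0. The *wtf* family includes killer elements of meiosis, but *wtf18* is annotated as an antidote-like suppressor. Whether the *wtf* genes named next are killers was not examined. *wtf14*, with no repeated window, had 60.2, 58.7 and 63.2 CPM, and *wtf11* and *wtf7*, also without repeats, 21.1, 17.2 and 16.6 and 22.1, 23.3 and 20.7 CPM.

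Genes were also divided into quintiles by RPKM, to describe what abundant mRNAs share. The median annotated mRNA was 602 bases for ribosomal protein genes, 1205 for the highest quintile of all coding genes, 2203 for the next to lowest and 1958 for the lowest, where the median over all coding genes was 1682 bases. Since RPKM is divided by length, length and level here are not independent measures. Introns were present in 54% of ribosomal protein genes, 53.8% of the highest quintile and 35.9% of the lowest, against 48.3% of all coding genes. Codon use also changed along the order. Of lysine codons, AAG made up 83.1% in ribosomal protein genes, 52.7% in the highest quintile and 33.4% in the lowest. Of arginine codons, CGT made up 69.9%, 52.8% and 24.1% in the same groups. The first 100 genes per kilobase outside the ribosomal proteins had 76.5% AAG and 74.4% CGT.

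The cultures agreed closely for most genes. The variability of a gene was measured as its excess CV, the coefficient of variation of its CPM over the 3 cultures less the part that counting alone gives, for the 4628 coding genes of at least 10 CPM. The median excess CV was 4.14%, the 90th percentile 10.4% and the 99th 22.9%, and 652 genes varied no more than counting gives. With 3 cultures the value for any single gene is rough, and none was tested. Among the steadiest genes of at least 100 CPM, with an excess CV of 0, were *enp1*, a factor of 40S subunit assembly, with 184, 184 and 184 CPM, *mid2*, which organizes septin rings, with 346, 347 and 348 CPM, and *uap56*, an RNA helicase of mRNA export, with 607, 605 and 609 CPM. The ribosomal protein genes had a median excess CV of 3.47%, translation factors 3.15%, sterol synthesis 1.67% and membrane transport 5.56%.

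An excess CV over 25% was found for 34 genes. In 32 of them WT-1 was the culture apart from the others, higher in 28 and lower in 4. Over all 4628 genes of at least 10 CPM, WT-1 was apart in 49.4%, higher in 1138 and lower in 1149. Without WT-1 only 3 genes of at least 10 CPM in the other cultures passed the same limit. The filter on the mean lets a gene in through 1 high culture. Of the 34 genes, 28 had at least 10 CPM in each library, with WT-1 apart in 26, higher in 23 and lower in 3. The first was *gdt1* (SPAC186.05c), with 803, 5 and 42 counts, or 30.6, 0.215 and 1.2 CPM, and an excess CV of 162%, so it passed the filter through WT-1 alone. It encodes a protein of a family that carries calcium and manganese into the Golgi in budding yeast. The genes on either side differed in pattern. SPAC186.06 had 85, 0 and 5 counts and SPAC186.04c had 32, 8 and 2 counts, highest in WT-1, while SPAC186.03, with 61.9% repeated windows, had 1, 7 and 6 and SPAC186.07c 2, 2 and 0 counts. Farther out, counts were 22, 31 and 54 for SPAC186.02c and 16, 4 and 9 for SPAC186.08c.

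Next to *gdt1* in the order of excess CV came the following genes. *edc1* had 19.4, 7.78 and 8.95 CPM. *ptr2*, a peptide transporter, had 58.4, 26.2 and 25.9 CPM. *fil1*, a GATA factor of amino acid synthesis genes, had 201, 98.6 and 90.1 CPM. In each of these WT-1 was at least 1.5 times each of the other cultures, which lay close together. *nrd1* and *csx1*, RNA-binding proteins of differentiation and of the stress response, had 21.5, 11 and 10.8 CPM and 37.8, 20.8 and 20.9 CPM. *wsc1*, a cell wall stress sensor, had 19.2, 11.1 and 9.81 CPM and *sts5*, an exoribonuclease-like protein of cell polarity, 96.1, 53.3 and 56.4 CPM. *elo2*, a fatty acid elongase, had 126, 71.7 and 68.4 CPM and *amt1*, an ammonium transporter, 24.2, 14.2 and 14 CPM.

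Among abundant mRNAs, *pma1* with an excess CV of 31.9%, *ura1*, of pyrimidine synthesis, with 954, 659 and 582 CPM, and *glt1*, glutamate synthase, with 428, 294 and 250.1 CPM, were all highest in WT-1. Lower in WT-1 were *pfl9*, a cell surface glycoprotein, with 13, 26.2 and 21.7 CPM, *cmt2*, a catechol O-methyltransferase, with 33.4, 57.1 and 65.7 CPM, *mug133* with 7.67, 13.2 and 12.3 CPM, and SPAC977.18 with 39.7, 63.9 and 67.4 CPM and 71.6% repeated windows. Genes where another culture stood apart were *hsp16*, a small heat shock protein, with 143, 77.9 and 143 CPM and WT-2 low, and *mam2*, the P-factor receptor, with 18.1, 23.9 and 30.4 CPM and WT-3 high. Without WT-1 the 3 genes past the limit were *hsp16*, *ght5* and *isp7*, an oxygenase with 35.6, 24.6 and 16.3 CPM.

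The excess of WT-1 moved with mRNA length. Of the 34 variable genes, 27 were longer than the median of 1752 bases, and 18 lay in the longest quintile of the genes of at least 10 CPM. Over all 4628 genes, the median log2 of WT-1 over the mean of WT-2 and WT-3 was -0.08, -0.06, -0.01, 0.03 and 0.14 in quintiles from the shortest to the longest mRNAs. The same medians for WT-2 over WT-3 ran from -0.04 to 0.00. Across these genes, which share their libraries and are not replicates, length correlated with the first ratio at a Spearman correlation of 0.56 and with the second at 0.16. WT-1 was the culture apart in 379 of the 524 genes with an excess CV over 10%, 72.3%, against 49.4% of all genes of at least 10 CPM. The part of mRNA length in the variability of single genes was not tested.

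**Figure D5:**
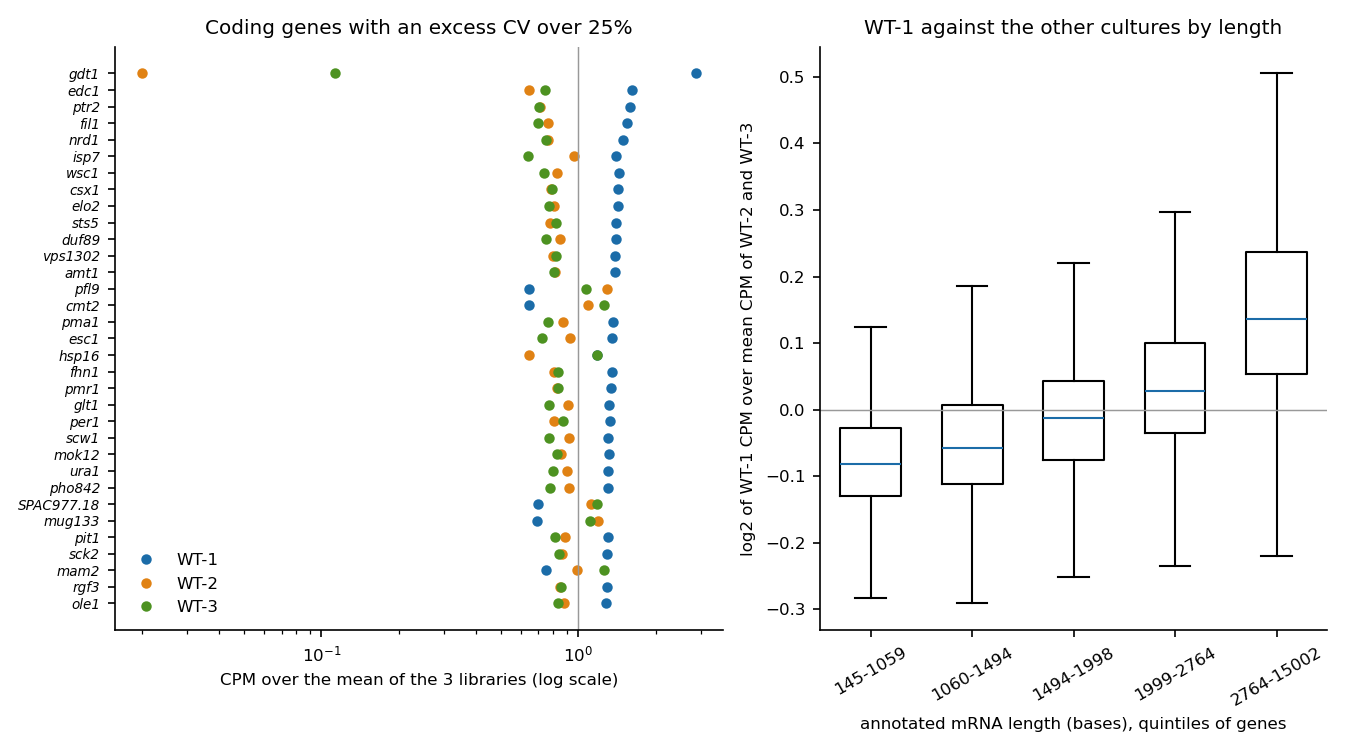
Left, CPM in each WT library over the mean of the 3 libraries (log scale). Shown are all but 1 of the 34 coding genes of at least 10 CPM with an excess CV over 25%. WT-1 is apart in 32 of the 34, against 49.4% of all coding genes of at least 10 CPM. Right, log2 of WT-1 CPM over the mean of WT-2 and WT-3 in quintiles of genes by annotated mRNA length in bases, as boxes of the quartiles with the median and whiskers to 1.5 times the quartile range, points beyond them not drawn; the medians run from -0.08 to 0.14.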

How the data were processed

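Strand-specific poly(A)+ libraries were made and sequenced by the authors as paired 51-base reads. Per the labels and the study's methods, reads were mapped with HISAT2 2.1.0 to ASM294v2, converted with SAMtools and counted over annotated exons with HTSeq 0.10.0; the strand setting and the handling of reads with several places are not given in the sources used here. The authors deposited whole-number counts for 6988 gene IDs, not normalized. The 3 WT columns were used, and 6 columns of per-sample counts from other strains were left out. The deposited DESeq2 tables of the authors, with mean normalized signal, log2 fold changes, test scores and p-values for strain comparisons, were not used.

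Gene names, products, gene order, mRNA lengths and sequence came from RefSeq ASM294v3, matched by ID for 6836 of 6988 IDs. As this is another build, no coordinates are given. CPM were counts over the sum of all gene rows of a library, and RPKM were CPM per kilobase of annotated mRNA. A window was repeated when its 51 bases occurred more than once in the genome on either strand. Excess CV was the square root of CV squared minus 1 over the mean count, and was tested on simulated counts. All values are descriptions with no test. Python 3.11.15, pandas 2.3.3 and R 4.3.3 with edgeR 4.0.16 and DESeq2 1.42.0, the last 2 for scaling factors only, were used. Alternatives were per-kilobase levels, scaling factors, count filters, other lengths, thinned counts and leaving out each culture.

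Named genes were drawn from the 20 highest by CPM and by RPKM and from the 2 highest and the lowest of each class. Further sources were 11 fixed lists, unique named genes at 0, the 20 most variable and the 10 steadiest genes. These sets are not named in full. Some others (barely detected genes, paralogs, translation factors, histones, proton pumps, neighbours and further variable genes) were named after their values were seen. 1 of the variable genes is not reported here. The members and lists were chosen with earlier results of these data known, and the class patterns were completed against RefSeq product names with levels in view. The limit on a count of 0 covers counting error only, while each SD describes the spread over the cultures.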

Additional observations from a re-analysis of the deposited data

How the results depend on the processing

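No paired analysis was possible because the values come from 1 strain and no test was run. Per kilobase of mRNA, which gives short mRNAs more weight by its construction, 118 genes held 50% of the summed level, ribosomal proteins held 48.5% and glycolysis and fermentation held 3.26%. Coding genes with no read numbered 22 among genes with at most 20% repeated windows, 51 with the libraries thinned to the smallest depth and 69 when up to 3 counts over the libraries were allowed. Genes with an excess CV over 25% numbered 73 at a minimum of 1 CPM, 158 with no filter on low counts and 7 at a minimum of 100 CPM, where fewer genes were measured. With TMM or DESeq2 size factors in place of library totals they numbered 36, with the counting part left in the CV 35, and with at least 10 CPM asked of each library, an alternative chosen after seeing the data, 28. The first 100 genes per kilobase kept 89 members with coding length and 98 with the mRNA length less 1 read. Leaving out 1 culture at a time gave 253 to 258 genes for 50% of the reads, 27.4 to 28.1% for ribosomal proteins, 4.28 to 4.51% for glycolysis, 98 to 99 shared genes of the first 100, and 50 to 56 genes with no read. For excess CV it gave 3 genes without WT-1, 52 without WT-3 and 68 without WT-2; what sets WT-1 apart was not tested. Depth limits the count of undetected genes and the spread of genes of low level.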

Other observations

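Noncoding RNAs lie outside the comparisons above. Of 1383 annotated long noncoding RNAs, 309 had a mean of at least 10 CPM and 357 a mean under 1 CPM, and their median was 3.47 CPM, beside 66.8 CPM for coding genes. The first was *prl53* with 2159, 1907 and 1849 CPM in WT-1, WT-2 and WT-3, and 18% of it overlaps another gene on the same strand. SPNCRNA.1626 followed with 301, 228 and 218 CPM and *rse1* with 185, 203 and 209 CPM. The small nucleolar RNA *snR30* had 72, 72.4 and 72.1 CPM in these poly(A)+ libraries.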
